A study of Mus musculus with 8 samples.

Results

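The 35 genes described here encode the glycolytic enzymes, the carriers of glucose and lactate, the oxygen-sensing factors of the hypoxia response and a few of their classic targets. They were chosen by symbol, and all 35 were found among the 25477 genes of the deposited count table and passed the filter on low counts, which left 16861 genes. Messenger RNA was measured in retinas of 2 groups of mice, 4 libraries carrying the genotype label PD-L1 knockout and 4 with the label control. The name of each of the 8 includes choroidal neovascularization (CNV), in which vessels from the choroid grow under the retina. The mouse line lacks PD-L1, the protein made from Cd274, which curbs T cells through the receptor PD-1. The sources used here do not state strain, age, sex, the deleted part of Cd274, how and when CNV was induced or whether animals were pooled. Nothing in the labels says that libraries came from separate animals, so a p-value here reflects the spread among 8 libraries, which may be technical.

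Glycolysis splits glucose into pyruvate. The retina is known for turning much of that pyruvate into lactate even when oxygen is present, and photoreceptors are the cells best known for it. Glucose enters through GLUT1 and is trapped by hexokinase, while lactate leaves or enters cells through monocarboxylate transporters that need the chaperone basigin. In low oxygen the factors HIF-1α and HIF-2α escape destruction, pair with ARNT, bind the core sequence ACGTG or GCGTG and switch on both glycolytic genes and other targets. When oxygen is ample, EGLN enzymes hydroxylate the HIF proteins and VHL marks them for breakdown, so HIF is set mainly at the protein level, which transcript counts do not measure.

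The libraries held 31743404 to 36438248 counts. Cd274 was low in every knockout library, with 12, 15, 9 and 11 counts in knockout libraries 1 to 4, against 148, 117, 153 and 165 in control libraries 1 to 4. Xist was abundant in all 8 libraries (2732 to 3462 CPM across knockouts, 3215 to 5152 CPM across controls; CPM is the count relative to the scaled library size), and the Y-linked Eif2s3y was at 0.188 CPM or less in each, while Kdm5d, also Y-linked, ran from 13.1 to 27.2 CPM across knockouts and reached at most 0.126 CPM in controls. Retinal identity was plain from the rod markers Gnat1, Pde6a, Pde6b, Cnga1, Sag, Nrl and Nr2e3, which summed to 18840.5 to 26183 CPM over the knockouts and 18564 to 22342 CPM over the controls. Knockout 3 and controls 2 and 3 carried lens transcripts (701, 2309 and 484 CPM over 16 markers, against at most 16.2 CPM in the other 5 libraries). Control 4 stood apart from the other controls, so counts of calls are given with and without these libraries, and genes whose call changed without control 4 with that value too.

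The promoters of the 4 genes that passed the test, and of a lactate-making enzyme and a hypoxia target that did not, are shown because HIF factors bind short sequences in promoters of this kind. Each window holds 250 bases before and 50 after the most upstream start that has a window in the RefSeq table (build GRCm38.p6; the gene records of Slc16a3 and Ldha begin further upstream, so their first starts are not shown), written 5′ to 3′ on the gene's strand. Capitals mark ACGTG or GCGTG read on either strand (CACGT and CACGC on the strand shown). The palindrome CACGTG, the core of the E-box, holds ACGTG on both strands and is counted as 2 matches.
Slc16a3 (chr11:120948817-120949116, plus strand): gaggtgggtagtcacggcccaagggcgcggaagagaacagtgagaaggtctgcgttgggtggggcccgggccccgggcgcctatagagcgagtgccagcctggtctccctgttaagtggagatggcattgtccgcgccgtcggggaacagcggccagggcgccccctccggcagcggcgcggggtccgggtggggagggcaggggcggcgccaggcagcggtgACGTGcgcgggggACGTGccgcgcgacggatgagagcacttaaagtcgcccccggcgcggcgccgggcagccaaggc
Pgk1 (chrX:106186850-106187149, plus strand): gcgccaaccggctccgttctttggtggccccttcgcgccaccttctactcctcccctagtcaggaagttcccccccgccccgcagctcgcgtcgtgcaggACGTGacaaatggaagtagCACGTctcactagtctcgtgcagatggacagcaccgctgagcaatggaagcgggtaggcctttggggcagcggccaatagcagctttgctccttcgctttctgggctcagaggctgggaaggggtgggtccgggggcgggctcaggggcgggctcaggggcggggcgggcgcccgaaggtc
Aldoc (chr11:78322823-78323122, plus strand): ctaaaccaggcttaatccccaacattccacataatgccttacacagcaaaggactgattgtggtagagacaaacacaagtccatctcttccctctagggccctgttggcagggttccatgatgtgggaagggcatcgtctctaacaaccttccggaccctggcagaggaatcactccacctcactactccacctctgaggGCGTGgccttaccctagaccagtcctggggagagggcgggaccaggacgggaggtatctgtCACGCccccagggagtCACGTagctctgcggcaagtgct
Tpi1 (chr6:124814109-124814408, minus strand): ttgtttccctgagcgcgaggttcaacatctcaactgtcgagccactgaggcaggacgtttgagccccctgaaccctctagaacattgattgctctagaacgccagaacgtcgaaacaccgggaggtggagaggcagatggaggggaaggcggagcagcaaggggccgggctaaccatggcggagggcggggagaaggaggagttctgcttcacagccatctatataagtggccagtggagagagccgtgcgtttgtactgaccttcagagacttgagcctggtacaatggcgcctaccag
Ldha (chr7:46845554-46845853, plus strand): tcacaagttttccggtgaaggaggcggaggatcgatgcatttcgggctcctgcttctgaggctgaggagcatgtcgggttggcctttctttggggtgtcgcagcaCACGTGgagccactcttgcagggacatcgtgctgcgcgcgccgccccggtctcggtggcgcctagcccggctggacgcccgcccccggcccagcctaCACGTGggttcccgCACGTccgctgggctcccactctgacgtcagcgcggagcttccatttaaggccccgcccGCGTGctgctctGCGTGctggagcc
Bnip3 (chr7:138909457-138909756, minus strand): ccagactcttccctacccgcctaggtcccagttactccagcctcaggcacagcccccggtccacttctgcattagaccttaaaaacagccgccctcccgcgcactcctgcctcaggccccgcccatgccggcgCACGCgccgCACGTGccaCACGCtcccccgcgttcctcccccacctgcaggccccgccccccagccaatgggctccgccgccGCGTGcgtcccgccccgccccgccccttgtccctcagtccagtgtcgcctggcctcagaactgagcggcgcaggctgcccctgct
The windows held 2 matches for Slc16a3, 2 for Pgk1, 3 for Aldoc, 0 for Tpi1, 7 for Ldha and 5 for Bnip3. Of the 32 genes with a window, 25 (78.1%) held at least 1 match, against 43.8% of the 27025 genes in the RefSeq table. The 27025 were not filtered on counts in these libraries, as the 32 were, so the shares come from unlike sets. Among the 15 glycolytic enzyme genes 9 held one, and among hypoxia targets all 5 with a window did. A match is a run of letters, not a measured binding site, and a window with none says nothing of HIF acting elsewhere.

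In knockout retinas the transcripts of 3 glycolytic enzymes, Aldoc, Tpi1 and Pgk1, and of the lactate exporter Slc16a3 rose. That is 4 of the 35 genes higher and 0 lower, with 31 not past the threshold (edgeR's quasi-likelihood test, adjusted p under 0.05 over all genes), where 2.55% of all genes tested passed, 1.2% higher and 1.35% lower. Among the 35 none of the 6 hypoxia factors and none of the 6 hypoxia targets outside glycolysis passed. For sets of 6 genes that is near the share over all genes, and a difference from the enzymes was not tested. The 15 enzyme genes from Hk1 to Pkm, Pfkfb3 left out, all had positive log2 fold changes, with a median of 0.45 and a range of 0.06 for Pfkp to 0.51 for Eno1. At an unadjusted p under 0.05, 18 of the 35 were higher and none lower, against 10.5% of all genes higher. The median log2 fold change of the 35 was 0.32, that of all genes tested 0.00, and 30 of the 35 were positive, against 49.8% of all genes. The knockout values lay wholly above the control values for 9 of the 35 and wholly below for none, against 5.19% above and 5.78% below over all genes. In whole retina, a change in the number of cells of a type and a change in RNA per cell cannot be told apart.

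**Figure D1:**
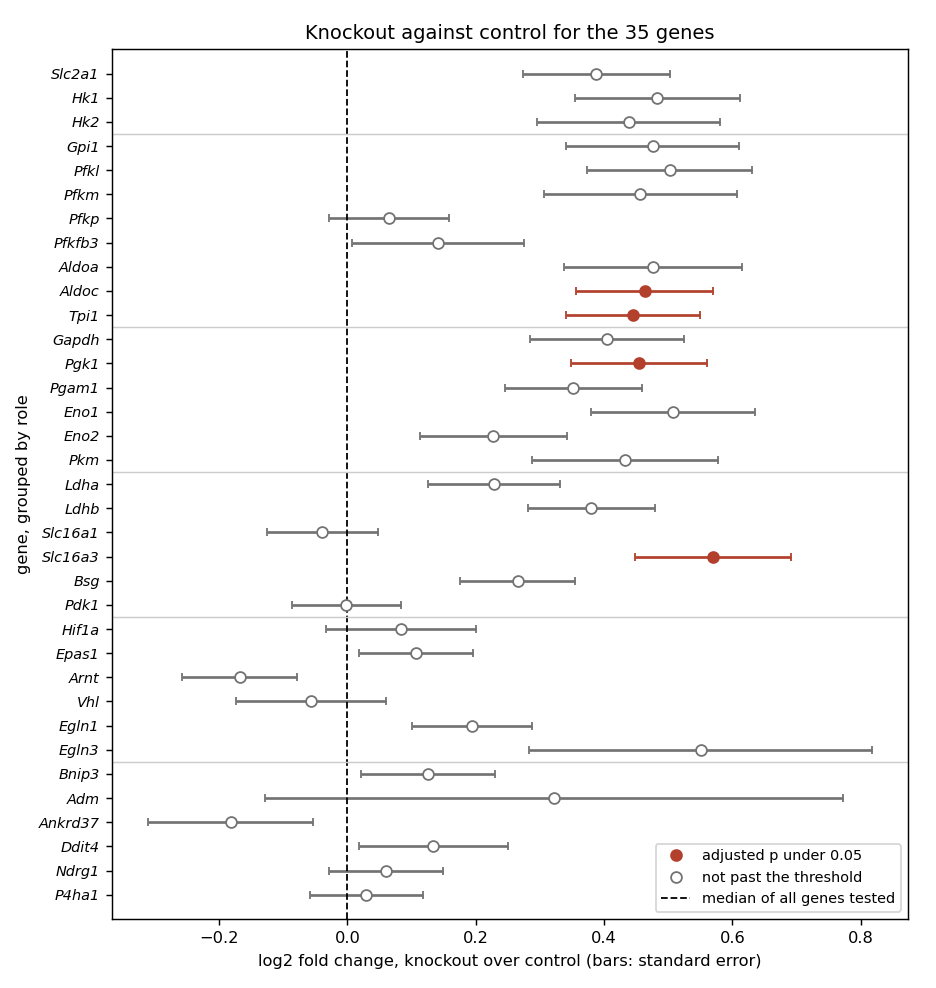
Log2 fold changes of the 35 genes, knockout over control, grouped by role (rows), with standard errors as bars and the median of all genes tested as a dashed line. The 15 glycolytic enzymes lie between 0.06 and 0.51, and the hypoxia targets between -0.18 and 0.32.

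These calls depended on single libraries. Control 4 had the highest control value for 14 of the 15 glycolytic enzyme genes and for 19 of the 35 genes, against 33.1% of all genes tested. Without control 4, 18 of the 35 rose and none fell, among them 14 of the 15 enzymes, against 10.5% of all genes higher in that fit. No member passed without knockout 2, 3 or 4 or control 1, 2 or 3, with 17 to 19 members at an unadjusted p under 0.05 in these edgeR fits, and 3 passed without knockout 1. For these fits the share of all genes at that unadjusted p is not given. The share of all genes called was 1.94% without knockout 1, 1.19% without knockout 2, 0.63% without knockout 3 and 1.26% without knockout 4, and 0.948%, 0.836% and 0.759% without control 1, 2 and 3. Without knockout 3 and controls 2 and 3, the libraries with lens transcript, none passed, 5 had an unadjusted p under 0.05 and the median log2 fold change was 0.22, with 0.0865% of all genes called. That fit set knockouts 1, 2 and 4 against controls 1 and 4 alone. Fewer libraries and a larger weight of control 4 thus cannot be told apart from the loss of lens transcript. DESeq2 on all 8 libraries called 17 of the 35, all higher, against 3.52% of all genes higher and 7.82% in either direction.

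**Figure D2:**
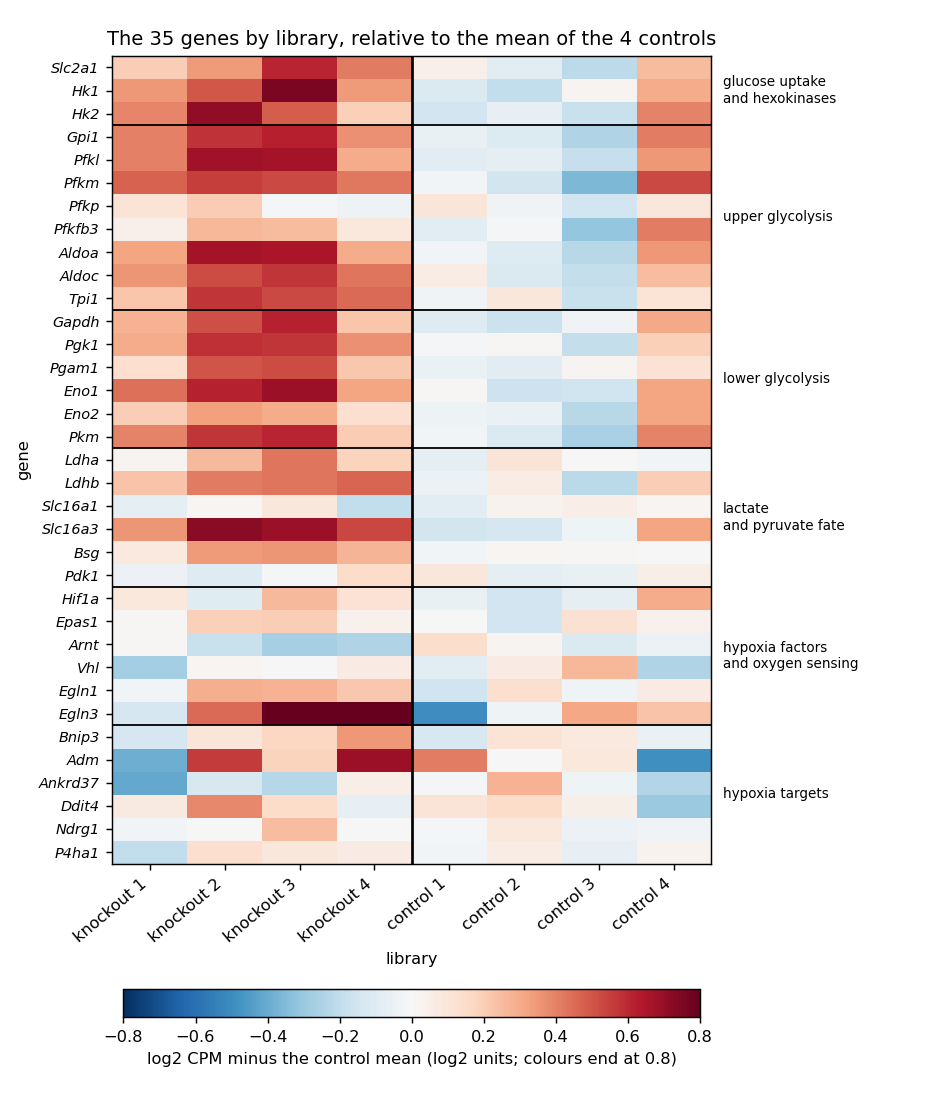
Level of each of the 35 genes (rows, by role) in each of the 8 libraries (columns), as log2 CPM minus the mean of the 4 controls. The glycolytic rows are high in the knockouts and in control 4, and the median over the 15 enzymes is 0.30 to 0.57 in the knockouts and 0.31 in control 4; the colours end at 0.8, below Egln3 in knockouts 3 (0.89) and 4 (0.87).

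Glucose uptake and the hexokinases come first. Slc2a1, which encodes the glucose carrier GLUT1, had 166, 184, 222 and 193 CPM in knockout libraries 1 to 4, against 149, 137, 126 and 173 CPM in control libraries 1 to 4. Knockout 1 lay below control 4, the groups overlapped, and the log2 fold change was 0.39 ± 0.11 (standard error, adjusted p = 0.0857). Hk1, the housekeeping hexokinase, had 867, 962, 1149.9 and 863 CPM in knockout libraries 1 to 4, against 628, 594, 692 and 836 CPM in control libraries 1 to 4. All 4 knockouts were above all 4 controls, but the log2 fold change was 0.48 ± 0.13 (standard error, adjusted p = 0.0647) and did not pass. Hk2, the hexokinase known from photoreceptors, had 387, 483, 413 and 337 CPM in knockout libraries 1 to 4, against 265, 282, 261 and 389 CPM in control libraries 1 to 4. Control 4 reached the knockout range while the other controls lay below it (log2 fold change 0.44, SE 0.14, adjusted p = 0.111). Without control 4 all 3 genes passed, with log2 fold changes of 0.48 (adjusted p = 0.00639) for Slc2a1, 0.59 (adjusted p = 0.00324) for Hk1 and 0.59 (adjusted p = 0.0034) for Hk2. In that fit 10.5% of all genes were called higher. Slc2a1, Hk1 and Hk2 passed in no other fit that left out 1 library.

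Upper glycolysis covers the steps to the triose phosphates, and 2 of its 8 genes rose. Aldoc, the aldolase of brain and retina (Entrez gene 11676, chromosome 11, 78323073 to 78327781, mm10), had 427, 479.8, 497 and 449 CPM in knockout libraries 1 to 4, against 347, 309, 293 and 395 CPM in control libraries 1 to 4. The groups did not overlap, with control 4 the nearest control, and the mean was 463 ± 31.1 CPM over the knockouts and 336 ± 45.8 CPM over the controls (SD, n = 4 each; log2 fold change 0.46, SE 0.11, adjusted p = 0.0424). Tpi1, which interconverts the triose phosphates (Entrez gene 21991, chromosome 6, 124810586 to 124814158), had 664, 845, 818 and 776 CPM in knockout libraries 1 to 4, against 558, 605, 502 and 614 CPM in control libraries 1 to 4. Knockout 1 was the lowest knockout and still above every control (log2 fold change 0.45, SE 0.10, adjusted p = 0.0444). Aldoa, the more abundant aldolase, had 1595, 2025, 2009 and 1569 CPM in knockout libraries 1 to 4, against 1259, 1192, 1096 and 1626 CPM in control libraries 1 to 4. Control 4 lay within the knockout range and the log2 fold change was 0.48 ± 0.14 (standard error, adjusted p = 0.0822). Gpi1, the glucose-6-phosphate isomerase, and the phosphofructokinases of liver and muscle type, Pfkl and Pfkm, had log2 fold changes of 0.48, 0.50 and 0.46 (adjusted p = 0.0771, 0.0568 and 0.115). The platelet-type phosphofructokinase Pfkp had a log2 fold change of 0.06 ± 0.09 (standard error, adjusted p = 0.722). Pfkfb3, which makes the activator fructose 2,6-bisphosphate and is a known hypoxia target, had 38.3, 44.9, 44.5 and 39.6 CPM in knockout libraries 1 to 4, against 35.2, 36.9, 30.04 and 49.5 CPM in control libraries 1 to 4. Control 4 was the highest library for Pfkfb3 and control 3 the lowest (log2 fold change 0.14, SE 0.13, adjusted p = 0.565). Without control 4 the log2 fold change of Pfkfb3 was 0.30 (adjusted p = 0.0497), past the threshold, and without control 3 it was 0.04, the lowest of the 8 fits that left out 1 library. Gpi1, Pfkl, Pfkm and Aldoa also passed without control 4, at 0.63 (adjusted p = 9e-04), 0.63 (adjusted p = 0.00166), 0.67 (adjusted p = 0.000513) and 0.61 (adjusted p = 0.00296), and Pfkp did not, at 0.10 (adjusted p = 0.519). In that fit 10.5% of all genes were called higher. Gpi1, Pfkl, Pfkm, Aldoa and Pfkfb3 passed in no other fit that left out 1 library.

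Lower glycolysis, the steps from the triose phosphates to pyruvate, had 1 of 6 genes past the threshold and all 6 positive. Pgk1, which makes the first ATP of the pathway (Entrez gene 18655, chromosome X, 106187100 to 106203699), had 522, 637, 632 and 548 CPM in knockout libraries 1 to 4, against 423, 427, 372 and 485 CPM in control libraries 1 to 4. Its knockouts were above every control (585 ± 58.2 CPM over the knockouts and 427 ± 45.98 CPM over the controls, SD, n = 4 each; log2 fold change 0.45, SE 0.11, adjusted p = 0.0444). Eno1, the widely expressed enolase, had 1586, 1789.5, 1879 and 1457 CPM in knockout libraries 1 to 4, against 1178, 1045, 1045 and 1453 CPM in control libraries 1 to 4. The lowest knockout, 4, exceeded the highest control, also 4, by a small margin, and the log2 fold change was 0.51 ± 0.13 (standard error, adjusted p = 0.0549). Pkm, the pyruvate kinase, had 2183, 2466, 2524 and 1909.7 CPM in knockout libraries 1 to 4, against 1630.2, 1528, 1386 and 2183 CPM in control libraries 1 to 4. Controls 1 to 3 lay below every knockout and control 4 did not (log2 fold change 0.43, SE 0.14, adjusted p = 0.119). Gapdh, the triose dehydrogenase often used as a loading control, had 149.6, 176, 189 and 144 CPM in knockout libraries 1 to 4, against 115, 109, 121 and 152 CPM in control libraries 1 to 4 (log2 fold change 0.40, SE 0.12, adjusted p = 0.0877). Pgam1, a mutase, and Eno2, the neuronal enolase, had log2 fold changes of 0.35 ± 0.11 (standard error, adjusted p = 0.0917) and 0.23 ± 0.11 (standard error, adjusted p = 0.27). Without control 4 all 6 genes of lower glycolysis passed, with 0.62 (adjusted p = 0.00171) for Eno1, 0.58 (adjusted p = 0.00315) for Pkm, 0.52 (adjusted p = 0.00401) for Gapdh, 0.39 (adjusted p = 0.0203) for Pgam1 and 0.35 (adjusted p = 0.0165) for Eno2. In that fit 10.5% of all genes were called higher. Eno1, Pkm, Gapdh, Pgam1 and Eno2 passed in no other fit that left out 1 library. Gapdh, Tpi1, Pgk1, Pgam1, Aldoa, Eno1 and Ldha have close processed copies in the mouse genome, and the sources used here do not state how shared reads were treated, so their levels are uncertain.

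**Figure D3:**
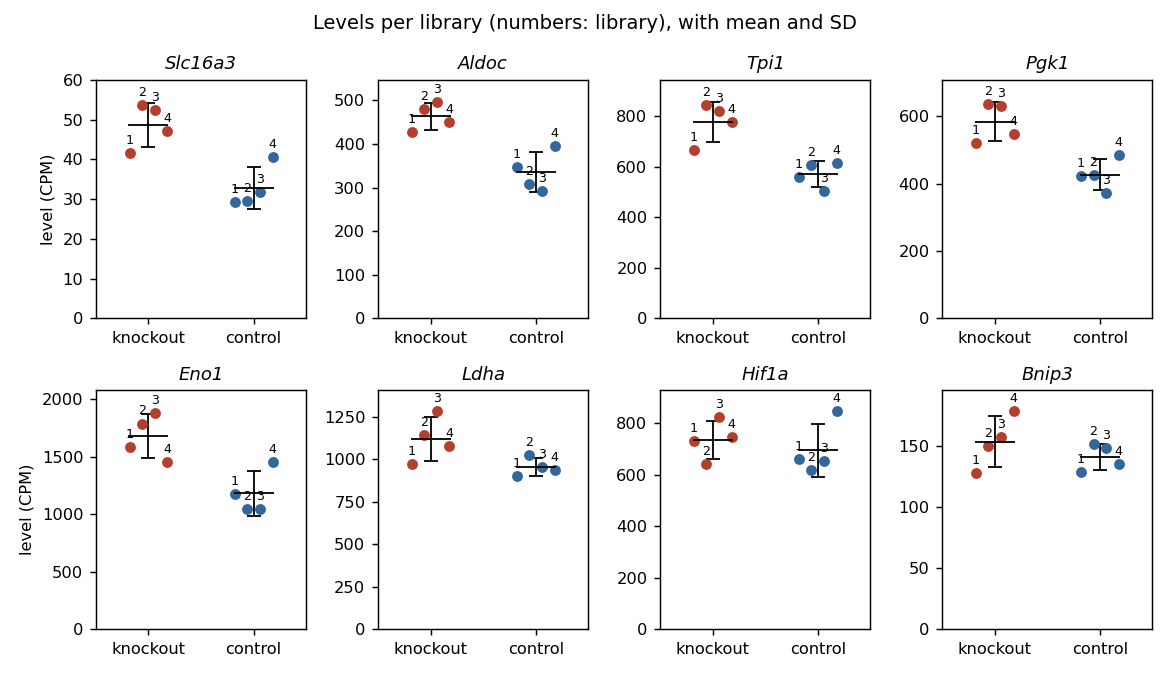
Levels in CPM (vertical axes, from 0) of 8 of the genes in the 4 knockout and 4 control libraries, numbered, with mean and SD. Slc16a3, Aldoc, Tpi1 and Pgk1, which passed the test, and Eno1 do not overlap between groups, whereas Ldha, Hif1a and Bnip3 do.

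Among the genes of lactate and pyruvate fate, 1 of 6 rose, the export carrier. Slc16a3, which encodes MCT4, the low-affinity carrier of cells that release lactate (Entrez gene 80879, chromosome 11, 120948484 to 120959000), had 41.6, 53.8, 52.5 and 47.1 CPM in knockout libraries 1 to 4, against 29.4, 29.6, 31.8 and 40.6 CPM in control libraries 1 to 4. Its mean was 48.7 ± 5.58 CPM over the knockouts and 32.8 ± 5.27 CPM over the controls (SD, n = 4 each), with no overlap and control 4 the nearest control. The log2 fold change was the largest of the 35, at 0.57 ± 0.12 (standard error, adjusted p = 0.0308). Slc16a1, which encodes MCT1, had 218, 232, 245 and 200.4 CPM in knockout libraries 1 to 4, against 215, 234, 238 and 232 CPM in control libraries 1 to 4 (log2 fold change -0.04, SE 0.09, adjusted p = 0.83). Bsg, which encodes basigin, averaged 700.0 ± 59.2 CPM over the knockouts and 582 ± 7.15 CPM over the controls (SD, n = 4 each). All 4 knockouts lay above the controls, which were close together, but the test was not passed (log2 fold change 0.27, SE 0.09, adjusted p = 0.122).

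The lactate dehydrogenase subunits were less clear. Ldha, whose subunit favours lactate formation, had 970.5, 1142, 1284 and 1081 CPM in knockout libraries 1 to 4, against 904, 1024, 956 and 939 CPM in control libraries 1 to 4. Knockout 1 lay within the control range (log2 fold change 0.23, SE 0.10, adjusted p = 0.225). Ldhb, whose subunit favours lactate use, had 141, 161, 163 and 167 CPM in knockout libraries 1 to 4, against 117, 126, 104 and 139 CPM in control libraries 1 to 4, with no overlap (log2 fold change 0.38, SE 0.10, adjusted p = 0.0589). Without control 4 Ldhb passed, at 0.45 (adjusted p = 0.00473), and Ldha did not, at 0.22 (adjusted p = 0.149). In that fit 10.5% of all genes were called higher, and Ldhb passed in no other fit that left out 1 library. Pdk1, a standard HIF target, encodes a kinase that inhibits pyruvate dehydrogenase. Its mean was 63.4 ± 4.88 CPM over the knockouts and 63.5 ± 3.59 CPM over the controls (SD, n = 4 each). The log2 fold change of Pdk1 was -0.0015 (SE 0.08, adjusted p = 0.994).

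The factors that sense oxygen had no member past the threshold and none of the 6 at an unadjusted p under 0.05 (edgeR, and DESeq2 called none of them). Over all genes tested, 2.55% passed and 10.5% were higher at that unadjusted p. Hif1a, which encodes HIF-1α, had 729.6, 644, 824 and 746 CPM in knockout libraries 1 to 4, against 661, 619, 652 and 847 CPM in control libraries 1 to 4. The groups overlapped, with control 4 the highest library and control 2 the lowest (log2 fold change 0.08, SE 0.12, adjusted p = 0.712). Without control 4 the log2 fold change of Hif1a was 0.19 (adjusted p = 0.172), still short of the threshold. Epas1, which encodes HIF-2α, had 169.8, 193, 194 and 173 CPM in knockout libraries 1 to 4, against 169, 152, 184 and 173 CPM in control libraries 1 to 4 (log2 fold change 0.11, SE 0.09, adjusted p = 0.501). Arnt, their shared partner, and Vhl, which marks HIF for breakdown, had log2 fold changes of -0.17 ± 0.09 (standard error, adjusted p = 0.297) and -0.06 ± 0.12 (standard error, adjusted p = 0.815). Of the hydroxylases, Egln1 had a log2 fold change of 0.19 ± 0.09 (standard error, adjusted p = 0.252). Egln3, itself induced by HIF, was scarce at 2.52, 3.83, 5.18 and 5.12 CPM in knockout libraries 1 to 4, against 1.94, 2.70, 3.45 and 3.26 CPM in control libraries 1 to 4. Knockouts 3 and 4 were the highest libraries and control 1 the lowest (log2 fold change 0.55, SE 0.27, adjusted p = 0.253).

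The hypoxia targets outside glycolysis had no member past the threshold either, where 2.55% of all genes passed. None of 6 had an unadjusted p under 0.05 (edgeR, and DESeq2 called none). Bnip3, a mitophagy receptor, had 128, 150.2, 157 and 178 CPM in knockout libraries 1 to 4, against 128, 151, 148 and 135 CPM in control libraries 1 to 4 (log2 fold change 0.13, SE 0.10, adjusted p = 0.502). Knockout 1 and control 1 were the lowest libraries, both at 128 CPM, and knockout 4 was the highest. Ddit4, an inhibitor of mTORC1, had 127, 158, 134 and 116 CPM in knockout libraries 1 to 4, against 129.6, 134, 125 and 98.4 CPM in control libraries 1 to 4 (log2 fold change 0.13, SE 0.12, adjusted p = 0.523). Adm, the vessel-acting peptide adrenomedullin, was near the limit of detection, with 8, 17, 13 and 19 counts in knockout libraries 1 to 4, against 14, 10, 11 and 7 in control libraries 1 to 4 (log2 fold change 0.32, SE 0.45, adjusted p = 0.711). Ankrd37, an ankyrin-repeat protein, Ndrg1, a stress-response protein, and P4ha1, a collagen prolyl hydroxylase, were at log2 fold changes of -0.18, 0.06 and 0.03, with SEs of 0.13, 0.09 and 0.09.

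Levels between genes were compared per transcript length, in the deposited FPKM. Eno1 was the highest of the 35 at 841 ± 82.9 FPKM over the knockouts and 584 ± 96.7 FPKM over the controls (SD, n = 4 each), followed by Aldoa at 747 ± 91.1 FPKM over the knockouts and 531 ± 95.8 FPKM over the controls and Tpi1 at 531 ± 44.6 FPKM over the knockouts and 385 ± 33.6 FPKM over the controls. In both groups Hk1 was above Hk2, Ldha above Ldhb, Slc16a1 above Slc16a3 and Hif1a above Epas1. Eno1, Aldoa, Tpi1 and Ldha are among the genes with close processed copies. Their ranks here, and the ratios below that use them, are therefore uncertain. The export carrier Slc16a3 was at 13.3 ± 1.26 FPKM over the knockouts and 8.87 ± 1.42 FPKM over the controls, and its relative Slc16a1 at 50.8 ± 3.65 FPKM over the knockouts and 51.5 ± 1.86 FPKM over the controls. Adm was the lowest, at 0.293 ± 0.101 FPKM over the knockouts and 0.232 ± 0.0694 FPKM over the controls, with Egln3 next.

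A ratio of 2 genes within a library does not depend on how libraries are scaled, so 9 pairs of isozymes or relatives were compared by log2 FPKM ratio. The log2 ratio Slc16a3/Slc16a1 was -2.12, -1.84, -1.95 and -1.82 in knockout libraries 1 to 4, against -2.60, -2.71, -2.63 and -2.25 in control libraries 1 to 4, higher in every knockout and differing by 0.62. Eno1/Eno2 was 2.53, 2.58, 2.67 and 2.47 in knockout libraries 1 to 4, against 2.34, 2.18, 2.35 and 2.28 in control libraries 1 to 4, a difference of 0.28. Pfkp/Pfkl was 0.23, 0.06, -0.15 and 0.18 in knockout libraries 1 to 4, against 0.71, 0.57, 0.56 and 0.27 in control libraries 1 to 4, lower in every knockout, with a difference of -0.44. For these 3 ratios the groups did not overlap and the exact two-sided permutation p was 0.0286, the smallest that 70 arrangements allow, but adjusted over the 9 ratios it was 0.0857, and none of the 9 passed. Ldha/Ldhb differed by -0.16 (exact permutation p = 0.229, adjusted p = 0.411) and Hk2/Hk1 by -0.04 (exact permutation p = 0.8, adjusted p = 0.914), both with overlapping groups. The adjusted p was 0.411 for Egln3/Egln1 (difference 0.34) and 0.914 for Pfkm/Pfkl, Aldoa/Aldoc and Epas1/Hif1a (differences of -0.01, 0.01 and 0.02).

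**Figure D4:**
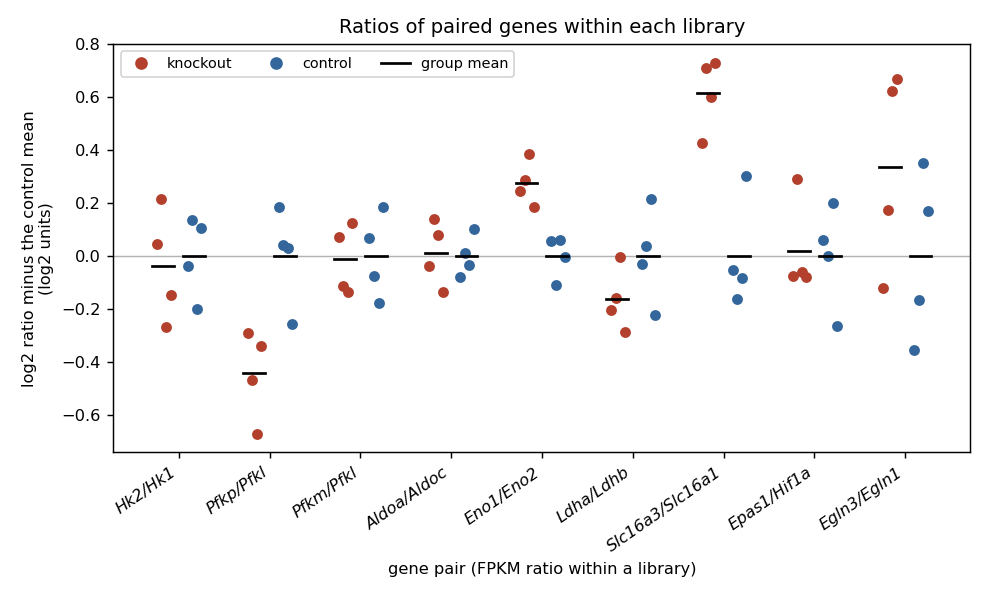
Log2 FPKM ratio of 9 gene pairs within each library (points), minus the mean of the 4 controls, with group means as lines. Slc16a3/Slc16a1 and Eno1/Eno2 are higher, and Pfkp/Pfkl lower, in every knockout than in every control.

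Summed over the 15 enzymes, the level was 10684, 12492, 12699.8 and 10273 CPM in knockout libraries 1 to 4 and 8283, 7904, 7464 and 10462 CPM in control libraries 1 to 4. Knockouts 2 and 3 were the highest, and control 4 lay between knockouts 4 and 1, far above the other controls. The 7 rod markers summed to 21406, 22535, 26183 and 18840.5 CPM in knockout libraries 1 to 4 and 18564, 18594, 18654 and 22342 CPM in control libraries 1 to 4. Control 4 was the highest control, knockout 4 the lowest knockout and knockout 3 the highest library in both sums. The rod sum of knockout 4 was close to those of controls 1 to 3 and its enzyme sum lay above theirs, but this is 1 library. Gnat1 alone made 7540 CPM of that rod sum. Of the rod markers none passed the test (edgeR, with 1 of 7, Sag, at an unadjusted p under 0.05). Their log2 fold changes ran from -0.13 for Nrl to 0.39 for Sag, with a median of 0.04. The part of rod content in the result was not tested.

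**Figure D5:**
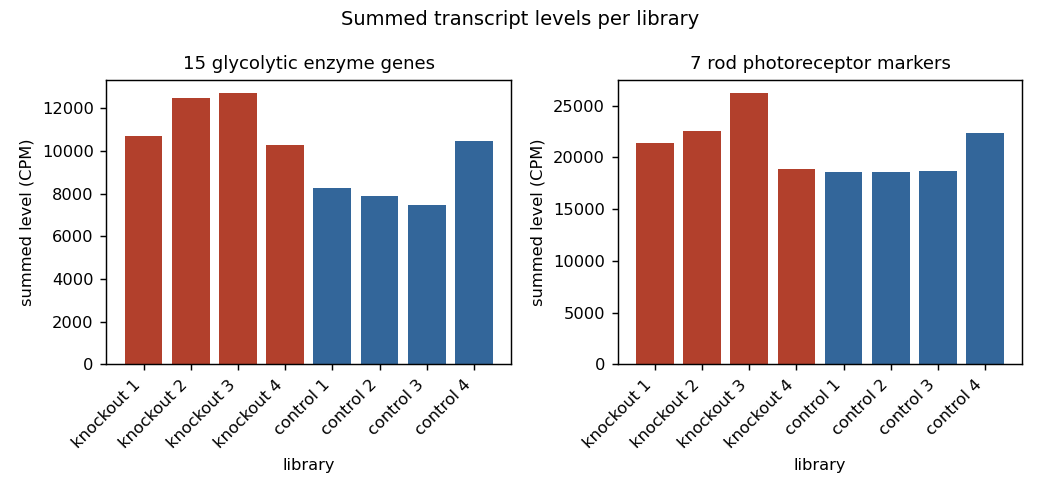
Summed CPM of the 15 glycolytic enzyme genes (left) and of 7 rod markers (right) in each library, knockouts first. Control 4 is the highest control and knockout 3 the highest library in both panels. Knockout 4, the lowest knockout in both, at 18840.5 CPM in the rod panel, is close to controls 1 to 3 there. It is well above them in the enzyme panel.

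Some markers of other cells also moved between the groups, where 1.2% of all genes tested were called higher and 1.35% lower. Of 7 microglial and macrophage markers 4 rose (C1qa, C1qb, Csf1r and Cx3cr1), and the sum over the 7 was 88.99 to 114 CPM over the knockouts and 45.3 to 68.3 CPM over the controls. Of 7 Müller glia markers 2 rose, Vim and Clu, with a sum of 3834 to 5185 CPM over the knockouts and 3398 to 4314 CPM over the controls. Pigment epithelium markers, of which 1 of 7 rose (Rgr), summed to 127 to 279 CPM over the knockouts and 71.4 to 166 CPM over the controls, with knockout 1 the lowest knockout and control 4 the lowest control. Of these 7, Pmel alone had a negative log2 fold change, -0.58, which did not pass (edgeR, adjusted p = 0.423). All 4 tested erythrocyte markers fell, and the 5 summed to 1.68 to 4.03 CPM over the knockouts and 10.1 to 14.5 CPM over the controls. Of 6 cone markers 1 fell (Arr3), and of 4 astrocyte markers 1 rose (Aldh1l1). The astrocyte marker S100b alone of the 4 had a negative log2 fold change, -0.77, which did not pass (edgeR, adjusted p = 0.069). None of 6 endothelial markers passed (edgeR, with 2 at an unadjusted p under 0.05). None of the 11 tested lens markers passed (edgeR, 0 at an unadjusted p under 0.05). No marker of these cell types was at 0 counts in all 8 libraries, and the part of these cells in the glycolytic result was not tested.

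Other genes of the same pathways were listed apart from the 35. Of 93 such genes 86 were tested and 84 did not pass. The 1 that rose and the 1 that fell make a share near the 2.55% of all genes called, and the median log2 fold change of the 86 was 0.05. Without control 4, 16 passed in either direction, where 18.7% of all genes did. The gene that fell was among 17 of lactate and pyruvate handling, and the gene that rose among 35 hypoxia targets. Slc16a7, which encodes MCT2, the high-affinity carrier that takes up lactate and pyruvate, fell, with 9.92, 9.65, 11.03 and 11.95 CPM in knockout libraries 1 to 4, against 16.3, 16.1, 14.02 and 15.2 CPM in control libraries 1 to 4 (log2 fold change -0.53, SE 0.12, adjusted p = 0.0381). Plod1, a collagen lysyl hydroxylase, rose, with 21.97, 17.8, 22.5 and 20.5 CPM in knockout libraries 1 to 4, against 13.98, 12.6, 14.5 and 15.95 CPM in control libraries 1 to 4 (log2 fold change 0.54, SE 0.12, adjusted p = 0.0372). Neither gene overlapped between the groups. When 1 library at a time was left out, Slc16a7 kept its call in the edgeR fits that lacked knockout 4 or control 4 and lost it in the other 6, where the adjusted p reached 0.122. Plod1 kept its call in those that lacked knockout 2 or control 4 and lost it in the other 6, where the adjusted p reached 0.142.

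None of the 23 other glycolysis genes and none of the 13 other hypoxia factors passed (edgeR, with 10 and 2 of them at an unadjusted p under 0.05). The 10 were 6 higher and 4 lower, and the 2 were 1 higher and 1 lower. Over all 16861 genes tested, 1772 were higher and 1824 lower at that unadjusted p. Pfkfb2, another enzyme that makes and breaks down fructose 2,6-bisphosphate, had 781, 782, 761 and 845 CPM in knockout libraries 1 to 4, against 1003, 1029.9, 1042 and 870.0 CPM in control libraries 1 to 4. It was lower in every knockout, but with a log2 fold change of -0.32 ± 0.09 (standard error, adjusted p = 0.0851) it did not pass. Pgm2, a phosphoglucomutase, was lower in every knockout too, with a log2 fold change of -0.56 ± 0.17 (standard error, adjusted p = 0.0923). Siah2, a ubiquitin ligase acting on EGLN enzymes, had a log2 fold change of 0.36 ± 0.12 (standard error, adjusted p = 0.123), and Eloc, a partner of VHL, one of -0.31 ± 0.11 (standard error, adjusted p = 0.143). Without control 4, Pfkfb2, Siah2 and Eloc passed, at -0.37 (adjusted p = 0.00767), 0.43 (adjusted p = 0.0238) and -0.38 (adjusted p = 0.0202), and Pgm2 did not, at -0.51 (adjusted p = 0.0584). In that fit 18.7% of all genes were called in either direction. Pfkfb2, Siah2 and Eloc passed in no other fit that left out 1 library. Vegfa, the hypoxia target that drives vessel growth in CNV, had 196, 200.4, 174 and 199 CPM in knockout libraries 1 to 4, against 216, 223, 177 and 201 CPM in control libraries 1 to 4. The groups overlapped and the log2 fold change was -0.09 ± 0.09 (standard error, adjusted p = 0.615). Of the 35 other hypoxia targets tested, 4 were higher and 2 lower at an unadjusted p under 0.05 (edgeR). Car12 had the largest log2 fold change among them, 1.17 ± 0.29 (standard error, adjusted p = 0.0517), just short of the threshold. Its mean was 6.76 CPM over the knockouts and 3.01 CPM over the controls, with overlapping groups.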

How the data were processed

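Polyadenylated RNA of 8 retina samples was sequenced after TRIzol extraction and VAHTS Universal V6 library preparation, per the labels' protocols. Per the submitters' processing notes, fastp, HISAT2 and HTSeq were used with the build mm10; the sources used here do not state versions, annotation, strand setting or filters, so reads of overlapping or antisense genes may be mixed. The deposited counts, made by the authors, are whole read numbers per gene. The deposited FPKM, made by the authors, are those counts over the library total and 1 length per gene.

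The counts were tested in edgeR 4.0.16 under R 4.3.3: TMM scaling, filterByExpr (minimum count 10, minimum total 15), a quasi-likelihood fit of knockout against control without covariates, and two-sided p-values adjusted by Benjamini and Hochberg over the 16861 genes tested (threshold 0.05). Fold changes are knockout over control. The SE is the absolute log2 fold change over the square root of F. CPM use TMM-scaled library sizes, and 1 count is 0.028 to 0.0314 CPM. Within-library log2 FPKM ratios were compared by exact permutation. The fit was tested on simulated counts. Replicates of a group differed beyond sampling noise (chi-square per degree of freedom of 19.0 or more). The 35 genes, the other lists, the ratios and the rule for genes given per library were chosen with earlier results of these data known. That rule takes members past the threshold and 18 chosen by role; Aldoa and Eno1 were added after their values were seen. Of other pathway genes it takes those past the threshold, or the 2 of smallest p in a list where none pass. Vegfa and Car12 were added after their values were seen. Positions and promoters come from RefSeq for GRCm38.p6, and 3 of the 35 genes had no promoter window. One marker gene is not reported here and is left out of the sums. Alternatives were run with DESeq2 1.42.0 and limma 3.58.1.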

Additional observations from a re-analysis of the deposited data

Results flagged for a closer look

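Within groups of 4 libraries, the highest or lowest library was set against the other 3 for each of the 35 genes and the 9 ratios, 88 groups in all. A value was singled out where its gap to the nearest library was a larger share of the group's range than the 95% critical value of Dixon's test allows, which chance does in about 1 of 20 groups. Of the 88 groups 3 were singled out. Hk2 was at 389 CPM in control 4, against 261 to 282 CPM in the other controls. Ndrg1 was at 281 CPM in knockout 3, against 233 to 237 CPM in the other knockouts. The log2 ratio Epas1/Hif1a was -1.87 in knockout 2, against -2.24 to -2.22 in the other knockouts.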

How the results depend on the processing

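All 4 calls among the 35 genes held under RLE, upper quartile and library size scaling, no filter or a stricter one, robust dispersions, DESeq2 and limma-voom, and the median log2 fold change of the 35 stayed between 0.22 and 0.41 over all alternatives. The number of the 35 called was 10 with no filter on low counts, 7 with robust dispersions, 17 with DESeq2, 1 and 2 on log2(FPKM + 1) and log2(FPKM + 0.1), and 0 without the 3 libraries high in lens transcripts, where 9 of the other pathway genes had an unadjusted p under 0.05; it was 0 to 18 when 1 library was left out. Over all genes, 430 (2.55%) were called in the reported fit, 690 (2.71%) with no filter, 545 (3.23%) with robust dispersions and 1296 (7.82%) with DESeq2. The number was 228 (1.35%) on log2(FPKM + 1), 290 (1.72%) on log2(FPKM + 0.1), 15 (0.0865%) without those 3 libraries and 108 to 3209 with 1 library left out. Without those 3 libraries, only controls 1 and 4 remained as controls. Of the other pathway genes, 8 were called with DESeq2, 0 and 1 on the 2 FPKM scales, 0 without those 3 libraries and 0 to 16 with 1 left out. With library size scaling, 61.2% of calls over all genes were higher in the knockout in place of 47.2%. The cause was not tested.

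With 1 library left out, the highest adjusted p was 0.124 for Slc16a3, 0.143 for Aldoc, 0.146 for Tpi1 and 0.15 for Pgk1. Slc16a3, Tpi1 and Pgk1 kept the call without knockout 1 or control 4, and Aldoc without control 4 alone.

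The title numbers showed no clear pairing of the libraries: deviations of same-numbered libraries correlated at 0.213, -0.041, 0.121 and 0.006, and not every library correlated best with its own number. Correlations among so few libraries cannot exclude a pairing. With the replicate block, 228 genes were called in all, 1 of the 35 (Slc16a3) and 0 of the other pathway genes (22 at an unadjusted p under 0.05).

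Values near 0 changed sign without a call. The log2 fold change of Pdk1 was 0.0182 with library size scaling, 0.0006 with no filter, and 0.0157 and 0.0170 on the 2 FPKM scales. Without the 3 lens-rich libraries Pfkfb3 was at -0.0439, Hif1a at -0.0862, Vhl at 0.1134, and the ratio differences of Hk2/Hk1 and Aldoa/Aldoc at 0.0046 and -0.0219. With 1 library left out, values ran from -0.0537 to 0.0295 for Pdk1, -0.1305 to 0.0345 for Vhl, -0.0158 to 0.0917 for P4ha1, -0.0075 to 0.0972 for Ndrg1 and -0.0830 to 0.0119 for Slc16a1. The ratio differences then ran from -0.0724 to 0.0484 for Pfkm/Pfkl, -0.0311 to 0.0599 for Aldoa/Aldoc, -0.0718 to 0.0857 for Epas1/Hif1a and -0.1237 to 0.0374 for Hk2/Hk1.

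With 4 libraries a group, and changes of about 0.45 on the log2 scale, the spread between libraries rather than counting depth limits the enzyme results; Adm and Egln3 rest on few counts.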
